A study of Mus musculus with 120 samples.

Results

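The genes described here are the cytosolic and mitochondrial molecular chaperones and co-chaperones of mouse group 2 innate lymphoid cells (ILC2s), lymphocytes that secrete type 2 cytokines. Members were the protein-coding genes whose symbols begin with Hspa, Hspb, Hspd, Hspe, Hsph or Hsp90, the genes Cct2 to Cct8 with their relatives and Tcp1, the Dnaja, Dnajb and Dnajc genes, and Bag1 to Bag6. The chaperones Hspa5, Hsp90b1, Dnajb9, Dnajb11 and Dnajc3 of the endoplasmic reticulum (ER) were left out by name, as was Hspg2, which encodes a matrix proteoglycan. The rule uses names alone and gave 84 genes of 46078 listed. A read was found for 66 of them, none for 18, and 42 had a mean of at least 20 CPM (reads per 1000000 gene reads) over the 12 groups. Hspa14 was not analysed here, since no listed identifier was paired with that symbol.

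Chaperones bind proteins that are not yet folded and use cycles of ATP to release them. Hsp70 proteins take up nascent chains with the help of J-domain proteins, and Bag and Hsp110 proteins make them let go of nucleotide. Hsp90 completes the folding of kinases and receptors, the ring complex TRiC, which is built from the products of Tcp1 and the Cct genes, folds actin and tubulin, and Hspa9, Hspd1 and Hspe1 (mortalin, Hsp60 and Hsp10) fold proteins imported into mitochondria. Lymphocytes that are activated make much new protein. Some chaperone genes are active in every cell, whereas Hspa1a, Hspa1b, Dnajb1 and Bag3 are known for induction by heat and other protein stress.

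The measurements were 3' RNA sequencing libraries of 120 single cells. ILC2s were sorted as lineage-negative c-Kit+ Sca-1+ cells from the mesentery of 20 wildtype C57BL/6 mice, which was pooled (the labels call the tissue fat tissues), and, per the study's methods, they were cultured for months with IL-2. Secretion of IL-13 or of IL-5, called the index, was imaged cell by cell, and each index has 60 cells. In each index, 5 cells were recovered before any stimulation (pre-stimulation cells), and 11 cells each were recovered after incubation with IL-2/IL-33 at 30, 60 and 90 min after the onset of secretion, late with secretion (activated) or late without it (silent). No group carried an altered allele, and all cells had been exposed to IL-2 in culture. The titles hold 2 dates per index whose meaning is not given, and the first date holds every cell taken before stimulation. Since no animal or culture is named for a cell, each group was taken as 1 sample, no test between groups was made, and a gene is called higher or lower between 2 groups when the log2 ratio of their CPM was at least 1 in size. The 2 indexes share no cells and no title date, so a difference between them cannot be told apart from one between dates. Comparisons within an index share groups.

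A cell held a median of 254001 gene reads. The 6 cells under 84667 reads include 3 with 65, 73 and 2152 reads, all of the IL-5 index at 60 min, at 30 min and silent, so ranges over cells leave these 6 out, while values of a group are its summed reads. Of 12 ILC2 markers, 12 had reads and 9 were found in over 60 cells, with a summed level of 5754 to 12906 CPM per group. Of the lists for other cells, B cell markers had no read in 4 of 4, T cell markers in 4 of 5 with at most 8.22 CPM, myeloid markers in 3 of 4 with at most 38.3 CPM, and stromal markers in 4 of 6 with at most 175 CPM, mainly of Pecam1, which had reads in 77 cells. Among mast cell markers Mcpt4, Cma1 and Tpsb2 had no read, and Fcer1a reached 326 CPM in 90 min cells of the IL-13 index.

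Members held 375437 of 31016336 gene reads, or 1.21%. The summed level of all members was lowest before stimulation and highest in activated cells in both indexes. In the IL-13 index the 5 pre-stimulation cells lay between 4718 and 5469 CPM, and the 11 activated cells between 11779 and 19799.7 CPM with a median of 16152 CPM, so the groups did not overlap. The 30 min cells of that index, at 5662 to 15361 CPM, also lay above all pre-stimulation cells. In the IL-5 index the pre-stimulation cells lay between 5566 and 10827 CPM and the activated cells between 10759 and 25977 CPM with a median of 17432 CPM, and 10 of 11 activated cells lay above all pre-stimulation cells. Of the 42 members with a mean of at least 20 CPM, the pre-stimulation group alone had the lowest level for 24 (IL-13 index) and 27 (IL-5 index), or 57.1% and 64.3%, where this held for 27.3% and 34.4% of all genes. With members at 0 in that group and in another, it was lowest or shared the lowest level for 28 in each index, or 66.7%, against 35.6% and 41.8% of all genes. Silent cells were between these groups, with medians of 10630.4 CPM in the IL-13 index and 11605 CPM over 10 cells in the IL-5 index.

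**Figure D1:**
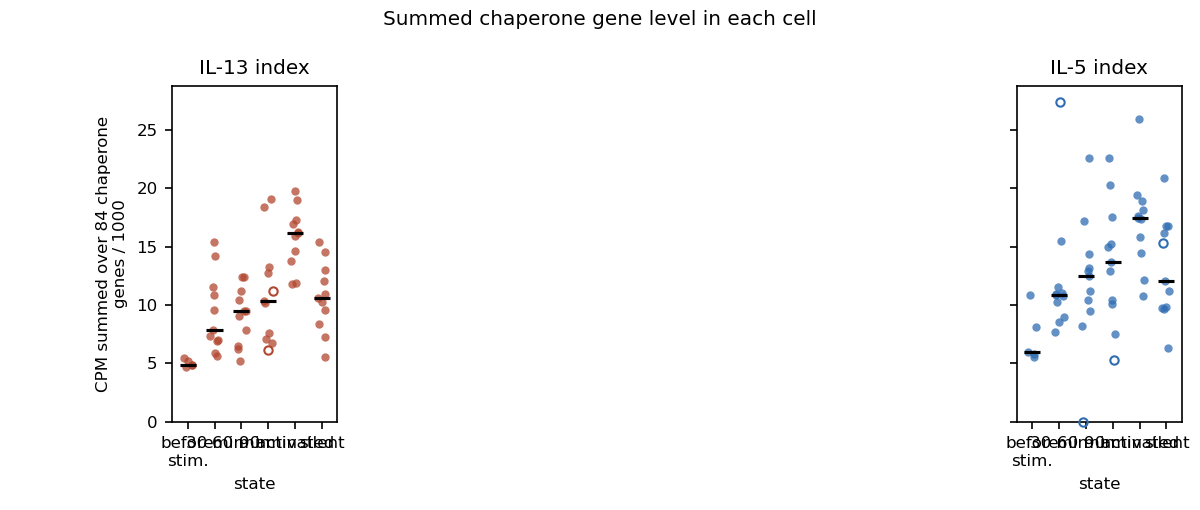
CPM summed over the 84 chaperone genes in each cell (vertical axis, CPM divided by 1000) by state (horizontal axis) for the IL-13 index (left) and the IL-5 index (right). Each point is a cell, open points are the 6 cells under 84667 gene reads, and bars are medians over all cells of a group, open points included. Activated cells of the IL-13 index, at 11779 CPM and above, lie clear of the pre-stimulation cells.

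The question of the first comparison was how chaperone genes stood in activated cells against cells before stimulation. Among cells of the IL-13 index, 26 of the 38 members with a mean of at least 20 CPM over both groups were higher in activated cells and 4 were lower, where 32.1% of all genes tested were higher and 35.1% lower. Among cells of the IL-5 index, 23 of 38 were higher and 6 lower, where 29.6% of all genes were higher and 38.6% lower. The median log2 ratio of the members was 1.65 and 1.48 in the IL-13 and IL-5 index, and that of all genes was -0.11 and -0.34. On the first date alone, which holds the pre-stimulation cells, the medians were 1.65 and 1.46. Of 33 members tested in both indexes, 18 were higher in both, where 18.2% of all genes were: Hspa4, Hspa8 and Hsph1, Hsp90aa1 and Hsp90ab1, Hspa9, Hspd1, Hspe1 and Dnajc15, Cct3, Cct5, Cct6a, Cct7 and Cct8, and Dnajb6, Dnajc1, Dnajc2 and Dnajc24. None of the 33 was lower in both, where 16.5% of all genes were. Pre-stimulation groups have 5 cells against 11. In every comparison a gene with no read in 1 of the 2 groups was set there to a floor of 3 reads per group. Its ratio, given as at least a fold, is then a bound for the reads counted and not for the level in such cells. Dnajc2, for instance, had no read in pre-stimulation cells of the IL-5 index and stood at 68.4 CPM in those of the IL-13 index.

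The difference was already present in part 30 min after onset. For the IL-13 index, 20 of 35 members were higher than before stimulation and 3 lower, where 32% of all genes were higher and 33.3% lower. For the IL-5 index, 18 of 39 were higher and 7 lower, where 32.5% of all genes were higher and 32.8% lower. The lower counts moved with single cells: that of the IL-13 index was 1 of 33 without pre-stimulation cell 1 and 6 of 36 without pre-stimulation cell 3, and that of the IL-5 index was 4 of 37 without pre-stimulation cell 5. The members' median log2 ratio was 1.13 and 0.82, against -0.17 and -0.13 over all genes, and on the first date alone it was 0.97 and 0.76. Higher in both indexes were 8 of 31 members (Cct3, Cct6a, Dnajb6, Dnajb14, Dnajc2, Dnajc4, Hspa4 and Hspa9), where 15.3% of all genes were, and lower in both was Dnajc9, a co-chaperone of histones, alone, where 10.8% of all genes were. In the IL-13 index Dnajc9 was at the threshold, at 32.1 CPM before stimulation and 16.1 CPM at 30 min, and its log2 ratio was -0.79 with TMM and -0.89 with DESeq2 factors, 0.43 on the first date alone and 1.94 without pre-stimulation cell 1. Cct6a was lower, at a log2 ratio of -1.03, on the first date alone in the IL-13 index.

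From 30 min to the activated state fewer members differed. Within the IL-13 index, 14 of 38 members were higher and 6 lower in activated cells, where 28.3% of all genes were higher and 28.7% lower, and in the IL-5 index 12 of 38 were higher and 6 lower, where 19.6% of all genes were higher and 28% lower. The members' median log2 ratio was 0.56 and 0.80, against 0.08 and -0.11 over all genes. Within the first and second date it was 0.30 and 0.33 in the IL-13 index and 0.67 and 0.75 in the IL-5 index. Higher in both indexes were Hspd1, Hspe1, Hsph1, Cct3, Cct4 and Cct7, 6 of 33 members where 8.93% of all genes were higher in both. Lower in both were Dnaja2, Dnajc4 and Dnajc10, 3 of 33 members where 11.7% of all genes were lower in both.

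**Figure D2:**
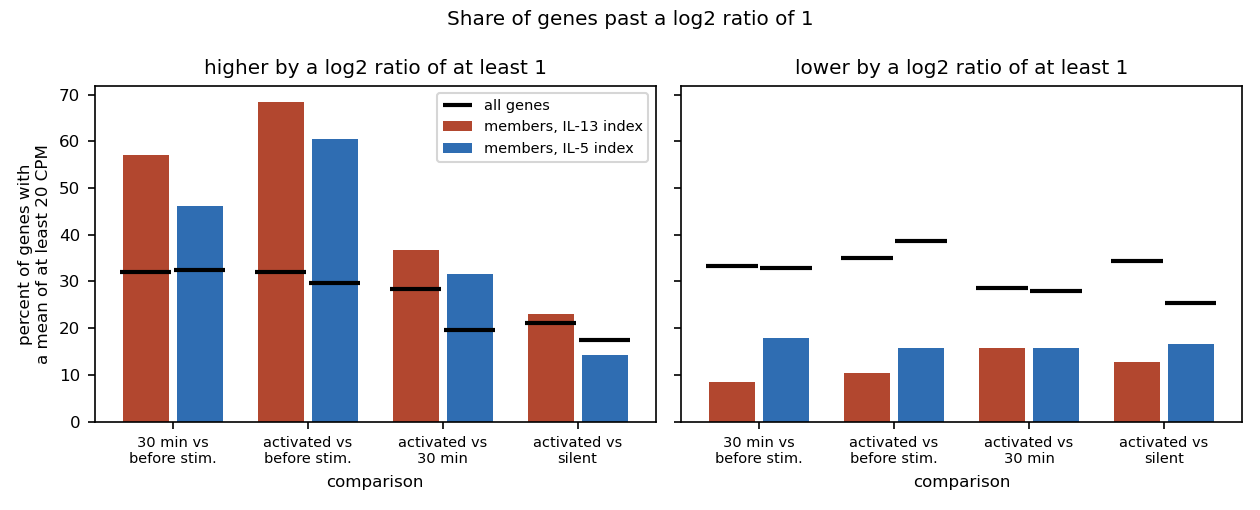
Percent of genes with a mean of at least 20 CPM that were higher (left) or lower (right) by a log2 ratio of at least 1 in each comparison (horizontal axis). Bars are the chaperone members of the IL-13 (red) and IL-5 (blue) index and black lines are all genes tested; against pre-stimulation cells, 26 of 38 members were higher in IL-13 index activated cells and 23 of 38 in the IL-5 index.

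**Figure D3:**
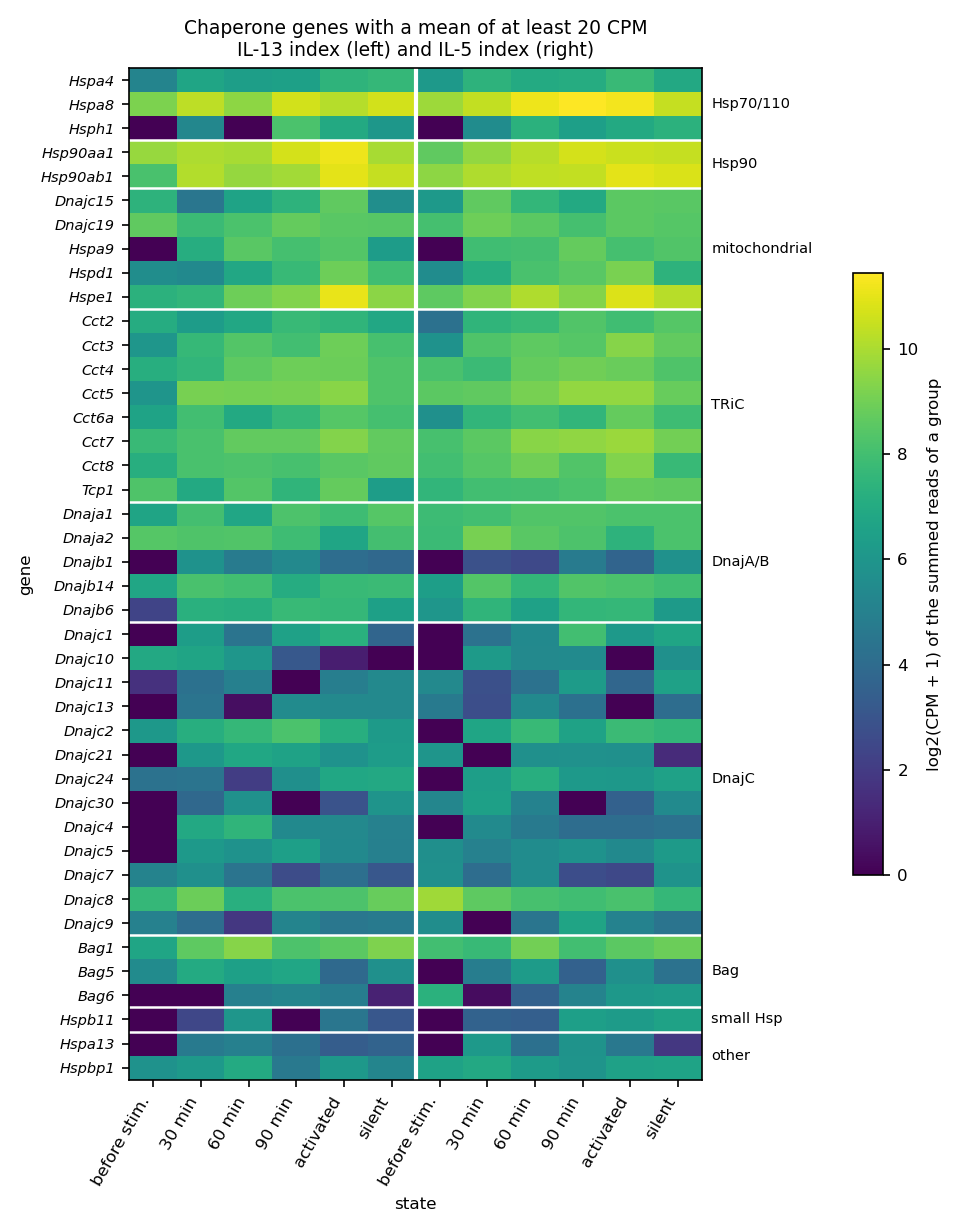
Level of the 42 members with a mean of at least 20 CPM (vertical axis, by role) in the 12 groups of state and index (horizontal axis), as log2(CPM + 1) of the summed reads of a group. The level before stimulation (dark) was alone the lowest of its index for 24 (IL-13 index) and 27 (IL-5 index) of the 42 members, with no read of Hspa9 or Hsph1 in either.

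The mitochondrial folding pair was higher in activated cells than before stimulation and than at 30 min, in both indexes. Hspe1 encodes Hsp10, the lid of the Hsp60 chamber, and Hspd1 encodes Hsp60 itself. Both start from a shared promoter region, and a search was made there and in the promoter windows found for other members for the heat shock element, the site of heat shock factor 1, spelled as 3 alternating pentamers without a gap: GAANNTTCNNGAA or TTCNNGAANNTTC, on both strands, with overlapping matches allowed. RefSeq promoter windows (GRCm38.p6, 250 bases before to 50 after a start) were searched for 68 members, and those of Hspa9 and Dnajc18 were not searched. The element was in a window of 4 of them, Hspd1, Hspe1, Hsph1 and Dnajb6, or 5.88%, and in 0.662% of the 27025 genes searched. The matches of Hspd1 and Hspe1 are the same stretch. Members were chosen by name, many as heat shock proteins, so the higher share does not bear on the levels measured. Whether heat shock factor 1 acts on these genes here was not tested. Elements spelled otherwise or outside the windows were not looked for. Windows of these 4 genes are given because Hspe1, Hspd1 and Hsph1 are among the members that were higher in activated than in 30 min cells in both indexes, and because of Dnajb6. The latter was the only 1 of 35 members that was higher in activated than in silent cells in both, where 5.3% of all genes were. Capitals mark the matches, each window reads 5′ to 3′ on the gene's strand, and a match is a description of letters and not a site of binding. The window of Hspe1 is chr1:55087898-55088197 on the plus strand and holds 2 overlapping matches, which the window of Hspd1 on the other strand shares. The window of Hsph1 is chr5:149636287-149636586 on the minus strand and that of Dnajb6 is chr5:29735648-29735947 on the plus strand.
Hspe1: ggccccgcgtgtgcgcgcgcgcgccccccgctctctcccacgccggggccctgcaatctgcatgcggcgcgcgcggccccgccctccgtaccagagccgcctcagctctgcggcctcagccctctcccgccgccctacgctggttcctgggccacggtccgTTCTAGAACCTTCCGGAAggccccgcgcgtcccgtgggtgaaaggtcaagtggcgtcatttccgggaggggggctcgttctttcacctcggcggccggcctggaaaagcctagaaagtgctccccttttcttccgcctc
Hsph1: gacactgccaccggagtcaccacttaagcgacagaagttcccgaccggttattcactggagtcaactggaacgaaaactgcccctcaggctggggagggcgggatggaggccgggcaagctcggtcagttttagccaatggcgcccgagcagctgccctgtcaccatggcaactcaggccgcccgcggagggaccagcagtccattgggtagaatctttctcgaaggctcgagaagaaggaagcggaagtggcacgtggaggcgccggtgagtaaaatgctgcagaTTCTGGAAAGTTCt
Dnajb6: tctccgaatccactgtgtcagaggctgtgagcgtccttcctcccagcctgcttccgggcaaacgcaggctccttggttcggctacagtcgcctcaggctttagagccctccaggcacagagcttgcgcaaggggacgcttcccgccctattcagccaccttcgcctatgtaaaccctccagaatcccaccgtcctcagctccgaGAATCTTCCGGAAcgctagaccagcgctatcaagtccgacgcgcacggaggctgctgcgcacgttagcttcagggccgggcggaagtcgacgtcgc

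Before stimulation, the 5 cells in the IL-13 index had 85.3, 0, 0, 581 and 176 CPM of Hspe1. At 30 min the 11 cells ran from 0 to 613 CPM with a median of 229.7 CPM, and activated cells from 968 to 3881 CPM with a median of 1664 CPM. Every activated cell of this index lay above every pre-stimulation and every 30 min cell. For such a lack of overlap, here and below, no share of all genes is given. Over summed reads Hspe1 stood at 163, 183, 492, 618 and 2129 CPM from before stimulation through 30, 60 and 90 min to the activated state, and at 706 CPM in silent cells. Activated cells were 13.1-fold above pre-stimulation cells, a log2 ratio of 3.71 (95% counting interval 3.48 to 3.95; 4.84 without pre-stimulation cell 4), and 11.7-fold above 30 min cells. Within the IL-5 index, the pre-stimulation cells held 1259.6, 104, 151, 546 and 350.1 CPM, the 30 min cells 169 to 1087 CPM with a median of 642 CPM, and the activated cells 538 to 3559 CPM with a median of 1737 CPM. These groups overlapped, and the log2 ratio of activated to pre-stimulation cells was 2.22 (2.09 to 2.36) and to 30 min cells 1.54 (1.47 to 1.61). On each date alone activated cells were also above 30 min cells, at log2 ratios of 2.51 and 4.27 in the IL-13 index and 1.83 and 1.34 in the IL-5 index.

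Hspd1 was also higher in activated cells. It had reads in 3 of 5 pre-stimulation cells of the IL-13 index, at 32.5, 225 and 4.63 CPM, and in 9 of 11 activated cells, which reached 983 CPM with a median of 432 CPM. In the IL-5 index 2 of 5 pre-stimulation cells had reads, at 179.9 and 109 CPM, and all 11 activated cells did, from 85.9 to 966 CPM with a median of 556 CPM. Over summed reads it rose from 48.7 to 485 CPM (log2 ratio 3.31, 2.90 to 3.77) and from 46.2 to 566 CPM (3.62, 3.23 to 4.03). Without pre-stimulation cell 4, the ratios were 5.42 and 4.44. At 30 min Hspd1 was at 42.2 CPM in the IL-13 index, against 48.7 CPM before stimulation, and at 139 CPM in the IL-5 index. The Hspd1 and Hspe1 transcripts overlap on opposite strands, and the strand setting of the counting is not given, so their reads may not be fully told apart.

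Hspa9, the mitochondrial Hsp70 that pulls proteins through the inner membrane, had no read in any of the 10 pre-stimulation cells and had reads in 79 of the 110 other cells. The floor of 3 reads stands at 1.38 CPM over both pre-stimulation groups, which is no limit on the level in such cells. At 30 min Hspa9 was at 138 and 246 CPM in the IL-13 and IL-5 index, with reads in 7 of 11 and 8 of 10 cells. Activated cells were at 330.4 and 267 CPM, at least 106-fold and at least 108-fold above the floor of the pre-stimulation group. All 11 activated cells of the IL-5 index had reads, from 2.5 to 492 CPM with a median of 221 CPM, against none in the pre-stimulation cells. In the IL-13 index 9 of 11 did, with a median of 341 CPM. Silent cells of the IL-13 index were at 79.7 CPM, and those of the IL-5 index at 319 CPM. From 30 min to activated, Hspa9 was higher in the IL-13 index only by the fold threshold (log2 ratio 1.26 against 0.11), a difference between indexes that was not tested, and within the first date of the IL-13 index the ratio was 0.15. Dnajc15 and Dnajc19, J-domain proteins of the mitochondrial import motor, differed from each other: Dnajc15 was higher in activated than in pre-stimulation cells at log2 ratios of 1.24 and 2.42, whereas those of Dnajc19 were -0.11 and 0.46. Without pre-stimulation cell 3, the ratios of Dnajc15 were 2.42 and 6.89, and without pre-stimulation cell 1 of the IL-13 index its ratio there was 0.81, and on the first date alone it was 0.89.

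**Figure D4:**
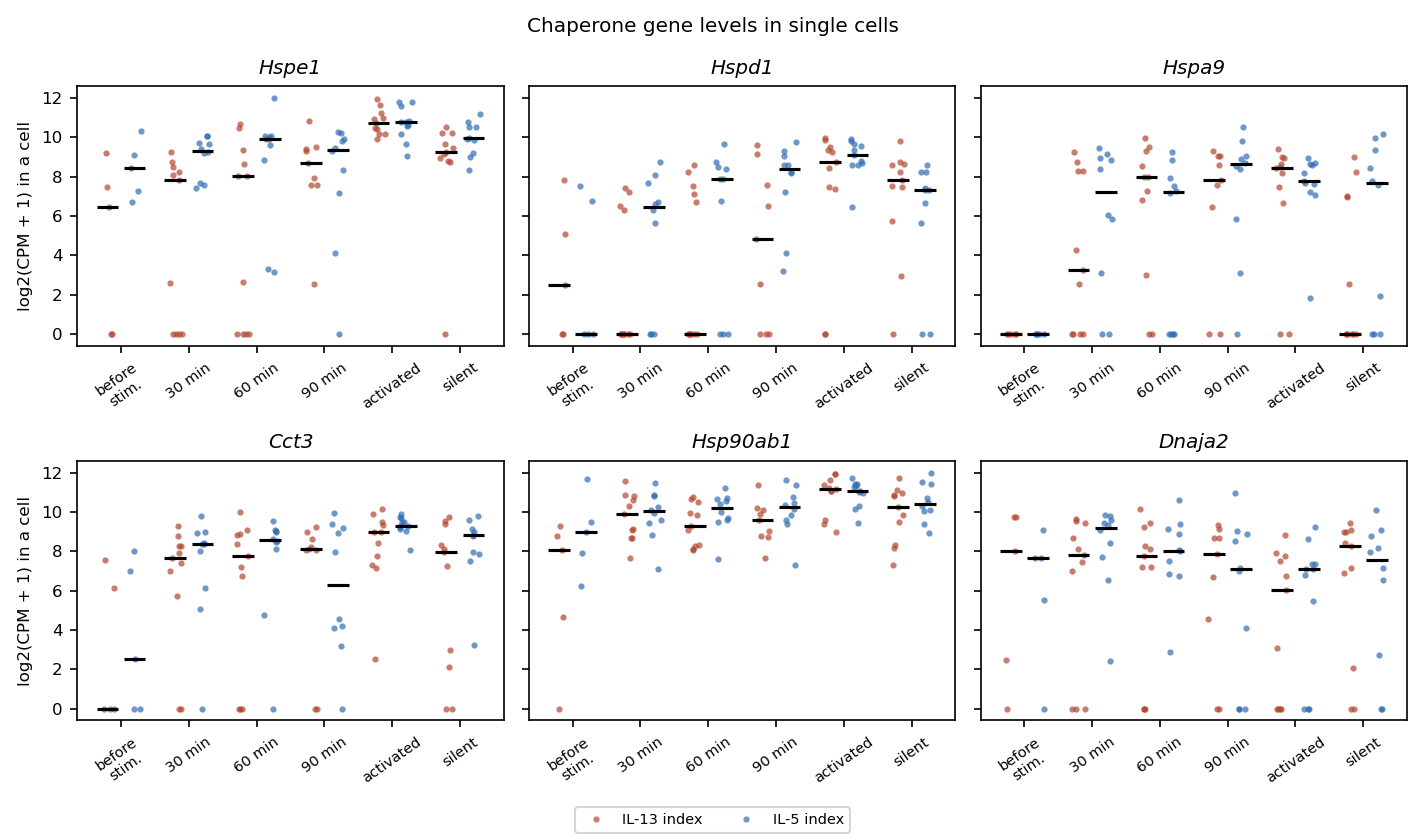
Level of 6 members in single cells as log2(CPM + 1) (vertical axis) by state (horizontal axis), with the IL-13 index in red and the IL-5 index in blue; bars are medians over cells and the 6 cells under 84667 reads are left out. Hspe1 in IL-13 index activated cells, at 968 CPM and above, lies over all pre-stimulation and 30 min cells, Hspa9 is at 0 in all 10 pre-stimulation cells, and Dnaja2 is lower in activated than in 30 min cells.

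Hspa8, the constitutive cytosolic Hsp70, was found in 119 of 120 cells. Pre-stimulation cells of the IL-13 index held 435, 622, 728, 314 and 815 CPM of Hspa8 and those of the IL-5 index 637, 1451, 506, 1224 and 112 CPM. Activated cells ran from 204 to 3282 CPM with a median of 1002 CPM, and from 452 to 6481 CPM with a median of 1883 CPM, so both indexes overlapped. The log2 ratio of activated to pre-stimulation cells was 1.00 (0.88 to 1.13) in the IL-13 index, at the threshold, and 1.48 (1.39 to 1.58) for IL-5 index cells. The first fell under the threshold, to 0.72, without activated cell 4, to 0.93 with DESeq2 size factors and to 0.66 against the pre-stimulation cells of both indexes. Levels over time were given by single groups and were not tested. In IL-13 index cells Hspa8 was at 1273 CPM at 30 min, 720.5 CPM at 60 min and 1642 CPM at 90 min, and in the IL-5 index at 1367, 2267 and 2801 CPM.

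Hsph1, the Hsp110 that serves Hsp70 as a nucleotide exchange factor, had no read in the 10 pre-stimulation cells and reads in 50 of the 110 others. In activated cells it was at 123 and 122 CPM, with reads in 11 of 11 and 9 of 11 cells, at least 39.5-fold and at least 49.4-fold above the floor. The lowest activated cell of the IL-13 index was at 2.44 CPM, so the lack of overlap with pre-stimulation cells there is that of few reads against none. At 30 min 2 of 11 and 2 of 10 cells had reads, and within the first date activated and 30 min cells were at log2 ratios of 0.01 and 0.40, against 5.07 and 6.18 within the second. In 30 min cells 93.1% and 73.3% of its reads came from cell 1 of each index, and without that cell the log2 ratios of 1.69 and 1.40 were 5.46 and 3.19. Hspa4, a second Hsp110 family member, rose from 35.3 to 175 CPM and from 69.3 to 214 CPM between pre-stimulation and activated cells, log2 ratios of 2.31 (1.81 to 2.86) and 1.63 (1.30 to 1.97), which were 5.45 without pre-stimulation cell 5 and 2.64 without pre-stimulation cell 1. Of the Hsp70 and Hsp110 genes with enough reads, 3 of 3 were called higher in activated than in pre-stimulation cells in each index, where 32.1% and 29.6% of all genes were, with Hspa8 of the IL-13 index at the threshold.

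Both cytosolic Hsp90 genes were higher in activated than in pre-stimulation cells. Hsp90aa1, the inducible form, was at 447, 598, 1433, 799.9 and 1000.1 CPM in the pre-stimulation cells of the IL-13 index and at 1377 to 4521 CPM with a median of 1895 CPM in the activated cells, where 1 pre-stimulation cell reached the range of the activated cells. For the IL-5 index, the pre-stimulation cells, at 277, 447, 668, 194 and 392 CPM, all lay below the activated cells, at 693 to 2855 CPM with a median of 1542 CPM. The log2 ratios were 1.48 (1.38 to 1.59) and 1.89 (1.75 to 2.02). For Hsp90ab1, the constitutive form, pre-stimulation cells of the IL-13 index held 264, 0, 24.3, 444 and 616 CPM against 508 to 3933 CPM with a median of 2331 CPM in activated cells, and the log2 ratio was 2.84 (2.66 to 3.01). Within the IL-5 index, pre-stimulation cell 1 stood apart at 3314 CPM from the others at 721, 242, 508 and 74.7 CPM. With it the log2 ratio was 1.47 (1.37 to 1.57), and without it 2.29. Hsp90ab1 was already at 1126 CPM in 30 min cells of the IL-13 index, a log2 ratio of 1.97 to the pre-stimulation cells, and at 1089.6 CPM in the IL-5 index, a log2 ratio of 0.57.

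Of the 8 TRiC subunit genes, 6 (IL-13 index) and 7 (IL-5 index) were higher in activated than in pre-stimulation cells, where 32.1% and 29.6% of all genes were, and none was lower. Their median log2 ratios were 1.65 and 1.48. At 30 min 4 and 3 of the 8 were higher than before stimulation, where 32% and 32.5% of all genes were, so the count of the IL-5 index was near that of all genes, and 1 was lower in the IL-13 index. From 30 min to activated, 5 and 4 of the 8 were higher, where 28.3% and 19.6% of all genes were, and none was lower. For Cct3 in the IL-13 index, the pre-stimulation cells held 187, 0, 0, 0 and 69.5 CPM and the activated cells 4.83 to 1125 CPM with a median of 499 CPM, and in the IL-5 index they held 255, 0, 128, 0 and 4.67 CPM against 264 to 966 CPM with a median of 631 CPM, where the groups did not overlap. The log2 ratios were 2.94 (2.57 to 3.33) and 3.54 (3.19 to 3.90), and 4.54 and 4.35 without pre-stimulation cell 1. Activated cells stood above 30 min cells at 1.28 and 1.09, and at 0.25 and 0.82 within the first date.

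The other subunits differed in when they were high. Cct5 had reads in 2 of 5 pre-stimulation cells of the IL-13 index, at 102 and 207 CPM, and in all 11 cells at 30 min, from 156 to 1317 CPM with a median of 449 CPM. Its log2 ratio of 30 min to pre-stimulation cells was 3.14 (2.77 to 3.54) there, 4.13 without pre-stimulation cell 2, but 0.10 in the IL-5 index, where pre-stimulation cells already held 378 CPM; this difference between indexes was not tested. Cct7 and Cct4 were above 30 min levels in activated cells of both indexes, Cct7 at log2 ratios of 1.19 and 1.18 and Cct4 at 1.32 and 1.04. These values are close to the threshold, and without 1 of the 30 min cells they reached 0.98 (cell 9, IL-13 index) and 0.99 (cell 5, IL-5 index) for Cct7 and 0.83 (cell 11, IL-5 index) for Cct4, while without 30 min cell 9 of the IL-13 index that of Cct4 was 2.10. Cct6a did not overlap between activated cells of the IL-5 index, at 152 to 724 CPM, and the pre-stimulation cells, at 90.0, 0, 86.9, 95.5 and 0 CPM. Tcp1, which encodes the alpha subunit, was the one TRiC gene that was lower at 30 min than before stimulation in the IL-13 index, from 318 to 124 CPM (log2 ratio -1.36, -1.59 to -1.14), a value that was -0.86 without pre-stimulation cell 2. It was at 430.3 and 432 CPM in activated cells.

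Cct2, Cct8 and Tcp1 depended on single pre-stimulation cells. In the IL-5 index all Cct2 reads before stimulation came from cell 1, at 165 CPM, and the log2 ratio of activated to pre-stimulation cells was 3.74, or 6.45 without that cell, whereas in the IL-13 index it was 0.42. For Cct8, cell 5 of the IL-5 index held 966 CPM before stimulation, and the log2 ratio of 1.31 was 2.67 without it and 0.95 without pre-stimulation cell 3. For Tcp1 in that index, 95.1% of the reads before stimulation came from cell 2, and the log2 ratio of 1.22 was 5.15 without it and 0.82 without pre-stimulation cell 4. Reads of Cct8, Tcp1 and Cct7 may include those of genes that overlap them on the other strand.

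**Figure D5:**
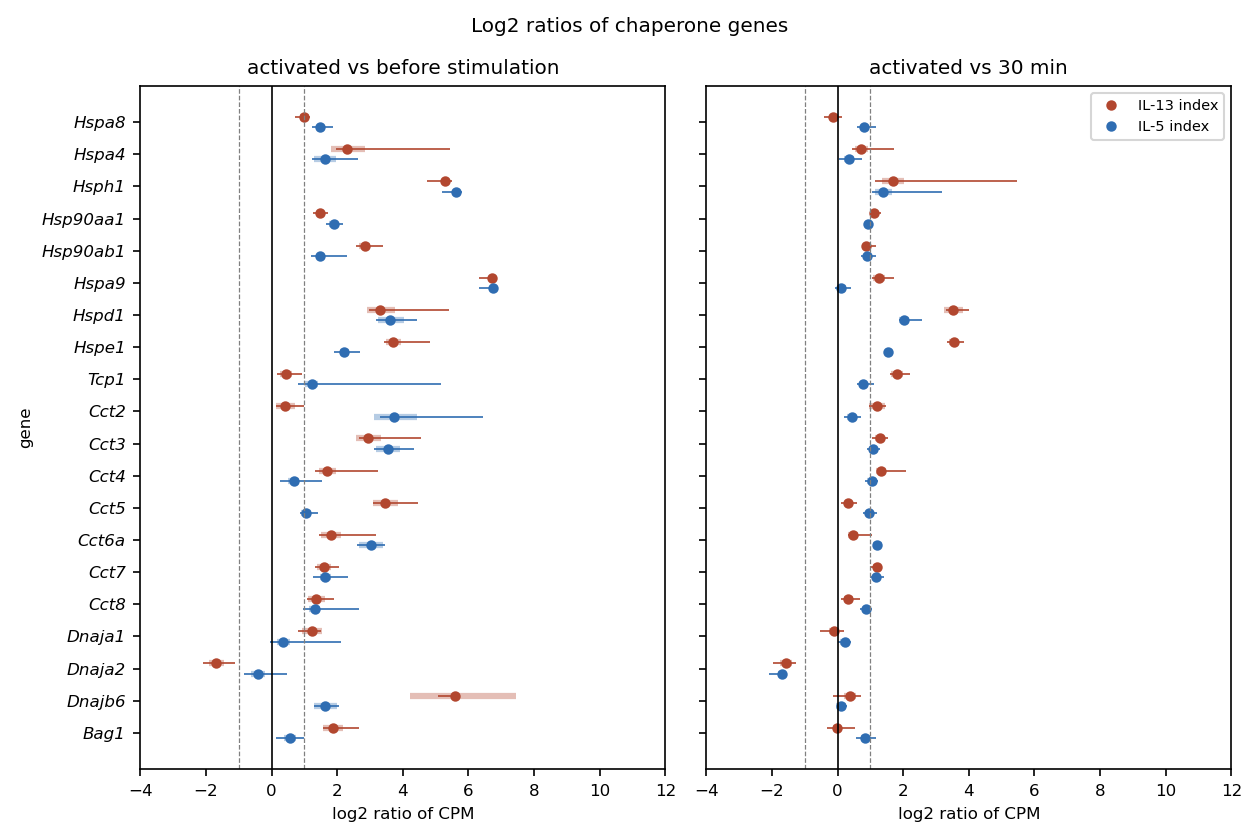
Log2 ratio of CPM (horizontal axis) of 20 members (vertical axis) in activated against pre-stimulation cells (left) and against 30 min cells (right), IL-13 index in red and IL-5 index in blue. Points are ratios of summed reads, thick bars their 95% counting intervals and thin lines the range on leaving out any 1 cell. Points of Hspa9 and Hsph1 on the left are bounds set by the floor for the reads counted, and dashed lines mark the threshold. Among these 20, the points of Hspd1 and Hspe1 lie farthest to the right in the right panel, and Dnaja2 lies to the left of 0. Larger rises from 30 min to activated cells, not drawn, were those of Dnajc15 in the IL-13 index (21.7 to 401 CPM) and Dnajc21 in the IL-5 index (0 to 53.6 CPM). In the other index neither rose, with Dnajc15 at 399.5 and 374 CPM and Dnajc21 at 67.2 and 56.7 CPM.

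J-domain proteins, which hand clients to Hsp70, moved in both directions. Dnaja2 was lower in activated than in 30 min cells of both indexes. Among cells of the IL-13 index, 30 min cells ran from 0 to 793 CPM with a median of 222 CPM and activated cells from 0 to 462 CPM with a median of 63.5 CPM. Among cells of the IL-5 index, 30 min cells ran from 4.32 to 927 CPM with a median of 593 CPM and activated cells from 0 to 601 CPM with a median of 134 CPM. The groups overlapped, and the log2 ratios were -1.56 (-1.75 to -1.38) and -1.69 (-1.82 to -1.56). Within the first date they were -0.56 and -0.66 and within the second -2.52 and -2.37. Dnaja2 in activated cells was also below pre-stimulation cells in the IL-13 index, at 107 against 343 CPM, a log2 ratio of -1.68, or -0.94 on the first date alone. Its paralog Dnaja1 stood at 239 against 102 CPM there, a log2 ratio of 1.24, which was 0.82 without activated cell 10. Neither passed the threshold on that contrast in the IL-5 index, with Dnaja2 at 168 against 224 CPM (log2 ratio -0.42) and Dnaja1 at 296 against 231 CPM (0.36).

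Dnajb6, which keeps aggregation-prone proteins soluble, was near the floor before stimulation in the IL-13 index, with 4 reads in 1 of 5 cells, and at 152 CPM at 30 min and 198 CPM in activated cells, log2 ratios of 5.20 (3.83 to 7.08) and 5.58 (4.22 to 7.46). For the IL-5 index, the pre-stimulation cells held 0, 42.4, 3.78, 116 and 135 CPM and the activated cells 106 to 465 CPM, with a log2 ratio of 1.62 (1.28 to 1.98). Dnajc2, the ribosome-associated J-domain protein, had reads in 2 and 0 of 5 pre-stimulation cells and in 7 and 11 of 11 activated cells. Within the IL-5 index, all activated cells, at 45.7 to 536 CPM, lay above the pre-stimulation cells and were at least 91.2-fold above the floor, while the log2 ratio in the IL-13 index was 1.07, or 2.78 without pre-stimulation cell 1 and 0.73 without activated cell 6. Dnajc1, a membrane protein of the ER that the naming rule keeps, had no read in the 10 pre-stimulation cells and was at 155 and 72.1 CPM in activated cells, with reads in 9 and 6 of 11 cells. Dnajc24, which acts in the making of diphthamide on elongation factor 2, was at 18.7 and 0 CPM before stimulation and at 112 and 67.0 CPM in activated cells. Its reads before stimulation in the IL-13 index came from cell 1, without which the log2 ratio of 2.59 was 4.75. Dnajc5, the cysteine string protein of secretory vesicles, had no read before stimulation in the IL-13 index and was at 69.5 CPM at 30 min, in 6 of 11 cells and at least 22.3-fold higher, whereas the IL-5 index held 51.1 and 31.3 CPM.

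Other J-domain genes were lower. Dnajc10, which reduces disulfides in the ER and is also kept by the rule, had 3 reads in 1 of 11 activated cells (IL-13 index) and 0 in 11 (IL-5 index). It was at 102 and 73.5 CPM at 30 min, in 5 of 11 and 4 of 10 cells, and the log2 ratio of activated to 30 min cells was -6.76 (-9.05 to -5.20) in the IL-13 index, while in the IL-5 index activated cells were at least 91.4-fold lower. For the IL-13 index, 79.5% of the 30 min reads came from cell 7, without which the ratio was -4.64. Dnajc8, a nuclear J-domain protein, was at 889 CPM before stimulation in the IL-5 index, where cell 5 held 3324 CPM and the others 975, 287, 351 and 188 CPM. Its log2 ratio of activated to pre-stimulation cells was -1.65 there, but -0.37 without that cell. Dnajc14, which takes part in membrane protein export from the ER, went from 32.1 to 8.14 CPM between pre-stimulation and activated cells of the IL-13 index, a log2 ratio of -1.98, or -0.30 without pre-stimulation cell 3, and in the IL-5 index from 0 to 6.7 CPM. Of the Dnajc genes tested outside the mitochondrial group, 7 of 12 were higher and 2 lower in activated than in pre-stimulation cells of the IL-13 index, where 32.1% of all genes were higher and 35.1% lower. For the IL-5 index 3 of 10 were higher and 4 lower, close to the 29.6% and 38.6% of all genes.

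Bag1, a nucleotide exchange factor for Hsp70 and a partner of BCL2, was found in 96 cells. Within the IL-13 index, it was at 236, 0, 0, 0 and 199 CPM in pre-stimulation cells and at 4.83 to 1273 CPM with a median of 276 CPM in activated cells, a log2 ratio of 1.86 (1.57 to 2.17), or 2.67 without pre-stimulation cell 1. In the IL-5 index it was at 256 and 376 CPM, a log2 ratio of 0.56. Its highest group level was at 60 min in both indexes, at 653 and 511 CPM. Small Hsp genes were nearly absent: of 8, only Hspb11, which is a part of intraflagellar transport and not a classical small Hsp, reached 20 CPM, with no read before stimulation in either index. Its IL-5 index level was 78.2 CPM in activated cells, but also at 97.2 CPM in silent and 87.5 CPM in 90 min cells, and at 11.0 CPM at 30 min, and in the IL-13 index it was highest at 60 min, at 63.7 CPM from 1 cell. Of the other small Hsp genes, Hspb6 had 11 reads in 1 cell.

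Hspa1a, Hspa1b, Dnajb1 and Bag3, known for induction by stress, had reads in 1 to 32 cells each. Hspa1a had 32 reads in 1 of 120 cells, a 30 min cell of the IL-13 index, and Hspa1b had reads in 7 cells, never in more than 1 cell of a group, with a group level of at most 81.7 CPM. These genes are nearly identical copies, so reads that map to both cannot be counted as unique. Dnajb1, which activates Hsp70, had reads in 32 cells and Bag3, a stress-induced exchange factor, in 17. None of the 4 had a read in the 10 pre-stimulation cells. Dnajb1 was at 56.8 CPM in 30 min cells of the IL-13 index, with reads in 5 of 11 cells, and at 54.8 CPM in IL-5 index silent cells, with reads in 6 of 10. Activated cells held 16.0 and 11.8 CPM of it. Bag3 was at 77.0 and 2.14 CPM in activated cells, where 82.5% of its reads in the IL-13 index came from 1 cell.

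The last comparison set activated against silent cells, which had the same stimulus but differed in secretion. In the IL-13 index 9 of 39 members were higher in activated cells and 5 lower, where 21.2% of all genes were higher and 34.3% lower. Among cells of the IL-5 index, 6 of 42 were higher and 7 lower, where 17.4% of all genes were higher and 25.3% lower. With TMM scaling 14 of 39 were higher in the IL-13 index, against 24.3% of all genes. The members' median log2 ratio was 0.40 and 0.10, against -0.27 and -0.13 over all genes. The members' median of the IL-13 index was 0.23 without activated cell 10 and 0.54 without activated cell 4. That of the IL-5 index was -0.02 without silent cell 11 and 0.35 without silent cell 2. Within the first and second date the median was 0.59 and 0.45 in the IL-13 index and 0.13 and 0.19 in the IL-5 index. Only Dnajb6 was higher in both indexes, 1 of 35 members where 5.3% of all genes were. Lower in both were Dnajc30 and Hspbap1, 2 of 35 members where 9.47% of all genes were. These calls rest on few cells, since Dnajc30 had reads in 22 and Hspbap1 in 9 of all 120 cells. In activated against silent cells Dnajc30 was at 6.58 and 60.8 CPM (IL-13 index) and at 10.7 and 43.1 CPM (IL-5 index). Hspbap1 was at 10.3 and 32.1 CPM and at 4.56 and 44.0 CPM.

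Dnajb6 ran from 0 to 605 CPM in activated and from 0 to 259.7 CPM in IL-13 index silent cells, a log2 ratio of 1.12 (0.90 to 1.34), which was 0.60 without activated cell 7. For the IL-5 index, activated cells held 106 to 465 CPM and silent cells 0 to 257 CPM, a log2 ratio of 1.38 (1.17 to 1.60). In IL-13 index cells Hspe1 was at 2129 CPM in activated and 706 CPM in silent cells (log2 ratio 1.59, 1.52 to 1.67), Tcp1 at 430.3 and 82.7 CPM (2.38, 2.17 to 2.59), Hspa9 at 330.4 and 79.7 CPM (2.05, 1.84 to 2.27, and 2.74 without silent cell 7), and Hsp90aa1 at 2311 and 985 CPM (1.23, 1.17 to 1.30). Within the IL-5 index, the log2 ratios of these genes were 0.62, 0.11, -0.26 and 0.10. In the same IL-13 index contrast Dnajc1 was at 155 and 12.5 CPM (3.64, 3.13 to 4.19), where all silent reads came from cell 4, without which the ratio was 6.97. Dnajc15 was at 401 and 50.2 CPM (3.00, 2.74 to 3.27, and 3.96 without silent cell 3), and Dnaja2 was lower, at 107 and 258 CPM (-1.26, -1.45 to -1.07). The log2 ratios of Dnajc1, Dnajc15 and Dnaja2 in the IL-5 index were -0.55, 0.04 and -0.81. There Hspd1 was higher, at 566 against 168 CPM (1.76, 1.62 to 1.90), as was Cct8, at 624 against 208 CPM (1.58, 1.45 to 1.71), whose ratios in the IL-13 index were 0.99 and -0.15. Dnajc21, a J-domain protein of ribosome assembly, was at 53.6 against 1.63 CPM in the IL-5 index (5.04, 3.79 to 6.68), with reads in 7 of 11 activated cells, and its ratio in the IL-13 index was -0.47. Whether the indexes differ in these genes was not tested. Dnajc7, a co-chaperone that links Hsp70 and Hsp90, was lower in activated than in IL-5 index silent cells, at 4.56 against 58.4 CPM (log2 ratio -3.68, and -2.89 without silent cell 9), and Dnajb1 at 11.8 against 54.8 CPM (-2.22, and -4.22 without activated cell 3). On the first date alone these 2 ratios were -0.97 and -0.51.

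Genes that work with the members were read from lists of Hsp90 co-chaperones, prefoldin and TRiC partners, mitochondrial quality control genes, heat shock factors and the ER chaperones that the rule left out. In activated against pre-stimulation cells, where 32.1% (IL-13 index) and 29.6% (IL-5 index) of all genes were higher and 35.1% and 38.6% lower, 8 of 10 and 6 of 11 Hsp90 co-chaperones tested were higher and 1 was lower in each. Cdc37, which brings kinases to Hsp90, had no read before stimulation in the IL-13 index and was at 209 CPM in activated cells, at least 67.1-fold higher. In the other index it was at 81.7 CPM before stimulation, in 4 of 5 cells, and at 176 CPM in activated cells, a log2 ratio of 1.11 (0.83 without pre-stimulation cell 5), and against the pre-stimulation cells of both indexes the log2 ratio of the IL-13 index was 2.20. Chordc1, an Hsp90 co-chaperone, had none before stimulation in either index and was at 188 and 111 CPM, at least 60.5-fold and at least 44.8-fold higher. Of the prefoldin and TRiC partners 5 of 8 and 4 of 8 were higher, with 1 lower in the IL-13 index. Pfdn2 went from 107 to 419.6 CPM in the IL-13 index (log2 ratio 1.97, and 4.21 without pre-stimulation cell 2) and from 19.8 to 264 CPM in the IL-5 index (3.74, 3.15 to 4.39, and 6.46 without pre-stimulation cell 5). Of the mitochondrial quality control genes 5 of 6 and 4 of 5 were higher, beside the same shares of all genes, with 1 lower in the IL-5 index. Grpel1, the exchange factor of Hspa9, had no read before stimulation in the IL-13 index and was at 163 CPM with reads in 11 of 11 activated cells. In the IL-5 index, unlike Hspa9, it was at 58.6 CPM before stimulation, all from cell 3, and at 152 CPM in activated cells, a log2 ratio of 1.37, which was 5.58 without that cell and 0.95 without pre-stimulation cell 2. Against the pre-stimulation cells of both indexes the IL-13 index ratio was 2.33.

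Among the heat shock factor genes only Hsbp1, which binds heat shock factor 1, was abundant enough in these comparisons, and it was lower in activated than in pre-stimulation cells, from 717 to 276 CPM and from 783 to 284 CPM (log2 ratios -1.38 and -1.46). Of the ER chaperones, 2 of 4 were higher in activated cells in each index, where 32.1% and 29.6% of all genes were. Hspa5, the Hsp70 of the ER, was at 354 against 958 CPM (log2 ratio 1.44, 1.28 to 1.60) and at 84.1 against 878 CPM (3.38, 3.10 to 3.68, and 5.94 without pre-stimulation cell 2).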

How the data were processed

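The deposited files hold the authors' raw counts of reads for each gene, 1 file per cell, made by the authors with TopHat 2 and HTSeq per the study's methods and the submitters' notes. The notes list mm10 and GRCh38 as builds, and the identifiers are of mouse genes. The strand setting is not given in the sources used here. GENCODE vM21 and RefSeq gave symbols for 45229 of 46078 identifiers, and the others held 0.0886% of reads. The 5 HTSeq summary entries were left out of depth. They put 28.7% of alignments as not unique, 7.42% outside genes and 1.86% as ambiguous, and genes with pseudogenes or overlaps, such as Hspd1, Hspe1, Hspa9, Cct3, Dnaja1 and Dnajc19, are uncertain for that reason. Libraries hold no molecular identifiers, so intervals cover counting error only.

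For each group, reads were added up over cells and divided by the group's gene reads, which ran from 964383 to 3732032. CPM are not per length, so levels were not compared between genes. Log2 ratios used a floor of 3 reads per group, with 95% intervals from the exact binomial split of reads. Genes averaging at least 20 CPM in the 2 groups compared entered a comparison. Scripts were tested on simulated data. Promoter windows on chromosome 18, which holds Hspa9 and Dnajc18, were not searched. The members, gene lists and comparisons were chosen with earlier results of these data known. The text names 21 core members. It also names, per comparison, up to 3 rises and 3 falls among members, and 1 of each per list of partner genes, that had reads in at least 50% of the cells of the higher group and kept their direction when cells were averaged by their own CPM and when any 1 cell was left out. Bag5, Dnajb14, Dnajc4, Dnajc9, Dnajc10, Dnajc19, Dnajc30, Hspa4, Hspb6 and Hspbap1 were named after their values were seen. Alternatives were TMM (edgeR 4.0.16) and DESeq2 1.42.0 size factors, minimums of 10 and 50 CPM, averages over cells, each title date, both indexes' pre-stimulation cells joined, no shallow cells, and leaving out each cell. Python 3.11.15, pandas 2.3.3, scipy 1.17.1 and matplotlib 3.10.9 were used.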

Additional observations from a re-analysis of the deposited data

Results flagged for a closer look

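Sums over a role were checked in 16 pre-stimulation group and role pairs for a cell far from the others of its group. Dixon's ratio of its gap to the range was set against the 95% critical value, and 3 were found. That value is passed in about 1 in 20 groups of normal values. Sums of CPM over genes read in part of the cells need not be normal, so the 3 cannot be read as more than chance gives. Cell 1 of the IL-5 index held 3591 CPM of the Hsp90 genes, cell 4 of the IL-13 index held 1641 CPM of the mitochondrial members, and cell 5 of the IL-5 index held 3716 CPM of Dnajc genes.

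In 5 cases a member passed the threshold in opposite directions in the 2 indexes, and the differences were not tested. From before stimulation to 30 min, Dnajc15 had a log2 ratio of -2.97 (IL-13 index) and 2.51 (IL-5 index), which were -1.79 and 6.98 without pre-stimulation cell 3 and, in the IL-13 index, -7.14 without 30 min cell 3. Dnajc8 had 1.28 and -1.20, which were 0.88 without 30 min cell 11 and 0.08 without pre-stimulation cell 5. Dnajc21 had no read before stimulation in the IL-13 index and none at 30 min in the IL-5 index, so its ratios are bounds of at least 4.43 (at least 21.6-fold higher) and of -6.18 (at least 72.3-fold lower). These were 0.61 without 30 min cell 9 and -1.91 without pre-stimulation cell 3. Bag5 had -1.66 in activated against pre-stimulation cells of the IL-13 index, but 1.90 without pre-stimulation cell 4, which held all reads of that group. It had no read in the IL-5 index before stimulation, and its ratio is a bound of at least 4.40 (at least 21.1-fold higher). In activated against silent cells Bag5 had -1.90 and 1.44.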

How the results depend on the processing

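Over the alternatives, 69 medians over members stayed within the range set for no change, 10 moved and 1 reversed. Counts of higher members stayed within 1.5 times in 78 cases and moved in 2, counts of lower members stayed in 66 and moved in 14, and values of named genes stayed in 383, moved in 248 and reversed in 4. The 4 do not include Dnajc9 and Bag5, which were named after their values were seen and whose sign also changed, as given above. Causes were not tested, except that a higher CPM minimum or 1 date leaves fewer genes or cells. No paired analysis was possible because replicate numbers follow accession order only and no test between groups was made. Depth limits genes near the floor of 3 reads, and 5 cells stand for each state before stimulation.

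With TMM factors the median log2 ratio of members was 1.95 for activated against pre-stimulation cells and 0.92 for activated against 30 min cells of the IL-5 index, and 0.58, with 14 of 39 members higher against 24.3% of all genes, for activated against silent cells of the IL-13 index. TMM moved the median of all genes from -0.34 to 0.13 in the first of these. The mean of the cells' own CPM gave 1.25 for activated against pre-stimulation cells of the IL-5 index. With the pre-stimulation cells of both indexes, the IL-13 index medians were 0.82 at 30 min and 1.38 in activated cells, and in these comparisons of the IL-5 index 3 of 37 and 3 of 36 members were lower, against 29.8% and 34.8% of all genes. A minimum of 50 CPM left 2 of 27 members lower for 30 min against pre-stimulation cells of the IL-5 index (all genes 30.2%), 2 of 29 and 2 of 28 for activated against pre-stimulation cells of the IL-13 and IL-5 index (33.6% and 35.7%), and 2 of 28 for activated against 30 min cells of the IL-5 index (22.3%). For activated against silent cells it gave a median of 0.63 with 1 of 29 lower (27.4%) in the IL-13 index, and 3 of 32 higher (13%) with 1 lower (17.5%) in the IL-5 index. A minimum of 10 CPM gave 11 of 49 lower (28.4%) in the last. By title date, activated against 30 min cells of the IL-13 index had medians of 0.30 and 0.33, the first date gave 3 of 35 members lower (28.5%) for that comparison of the IL-5 index and a median of 0.59 for activated against silent cells of the IL-13 index, and the second date gave 11 of 42 lower (33.8%) for activated against silent cells of the IL-5 index. Values of the named genes counted above reversed by date in 4 cases: Cct6a at -1.03 (30 min against pre-stimulation, IL-13 index, first date), and in the IL-5 index Pdcl3 at -0.80 (activated against 30 min, second date), Tomm34 at 0.64 (activated against silent, second date) and Vbp1 at -0.31 (activated against silent, first date). Dnajc9, which is outside that count, also changed sign on the first date of the IL-13 index, as given in the Results. On leaving out 1 cell, lower members at 30 min against pre-stimulation cells ran from 1 of 33 (34.9%, pre-stimulation cell 1) to 6 of 36 (32.7%, pre-stimulation cell 3) in the IL-13 index and from 4 of 37 (32.7%, pre-stimulation cell 5) to 8 of 38 (33.5%, 30 min cell 7) in the IL-5 index, and the median for activated against silent cells of the IL-5 index ran from -0.02 (silent cell 11) to 0.35 (silent cell 2).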
